A study of Mus musculus with 12 samples.

Results

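The imprinted gene network is a set of co-regulated genes of which each cell uses mainly the copy inherited from 1 parent. It was taken here as 10 named genes. Peg3, Nnat, Igf2, Dlk1, Plagl1, Mest and Sgce are expressed from the paternal copy, and Meg3, Grb10 and H19 from the maternal copy in most tissues. A gene was read through the probe set that carries its symbol alone and, where there were several, the one with the highest mean over all arrays. This gave 1 probe set for each of 9 of the 10 genes, 7 paternally and 2 maternally expressed, among 19938 genes tested. H19 was not analysed here.

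RNA levels were measured in 12 cultures of mouse embryonic fibroblasts (MEFs), 3 in each of 4 groups. The groups were Rb1 S/S cells, the Rb1 +/+ wild type matched to them (together the S set), Rb1 L/L cells, and the Rb1 +/+ wild type matched to those (the L set). Rb1 encodes the retinoblastoma protein, which restrains E2F transcription factors and binds chromatin regulators. The labels name the S and L alleles without saying what they change, and give no age of the embryos. All 4 groups were grown in medium with 10% serum to passage 4 and then held in 0.1% serum for 72 h to arrest them. Whether the cells had arrested was not measured. The labels do not say that the 3 samples of a group came from separate embryos, so p-values measure the spread between these samples, which may be technical. Levels and differences are on the log2 scale.

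Imprinted genes carry DNA methylation on 1 parental copy, set in the germ line and kept in body cells by DNMT1 and its partners. Many act on growth: paternally expressed genes such as Igf2 tend to promote it, and maternally expressed genes such as Grb10 to limit it. In mouse fibroblasts the network is known for rising as cells leave the cell cycle. Plagl1 is known in mouse as a factor that binds and activates several other members.

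Among the controls, array S1, the first of the S-set wild type, differed most from the rest. Its correlation with the other arrays over all genes was 0.955 to 0.974, against 0.977 to 0.995 among the other 11. Array 1 of the L-set wild type and array 1 of L/L had male levels of Y-linked genes, and the other 10 arrays did not. Over those 10 arrays the 3 Y-linked genes read 3.82 to 5.51, which shows what these 3 probe sets read with no transcript of their genes. The background of other probe sets may differ, so this range serves below only as a rough floor. The 11 fibroblast markers averaged 11.69 to 12.04 on every array, far above that floor. Rb1 itself read 8.34, 8.83 and 8.89 in the S-set wild type and 9.72, 9.58 and 9.35 in S/S, and 9.23, 9.05 and 8.61 in the L-set wild type and 9.39, 9.36 and 9.23 in L/L. The S/S arrays lay above their wild type by 0.87 (SE 0.17, limma adjusted p = 0.0976), and the L/L arrays overlapped theirs, with a difference of 0.36 (SE 0.17, adjusted p = 1.00).

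The start regions of the 4 members with the largest differences described below, Peg3, Plagl1, Meg3 and Nnat, are shown first. They come from RefSeq on GRCm38.p6, and each runs from 250 bases before to 50 after the start site. Capitals mark GGGGCCCC, the core that Plagl1 binds, in Peg3, and an E2F motif in Plagl1, where TTTGCCGC reads on the other strand.
Peg3 promoter, chr7:6730370-6730669, minus strand: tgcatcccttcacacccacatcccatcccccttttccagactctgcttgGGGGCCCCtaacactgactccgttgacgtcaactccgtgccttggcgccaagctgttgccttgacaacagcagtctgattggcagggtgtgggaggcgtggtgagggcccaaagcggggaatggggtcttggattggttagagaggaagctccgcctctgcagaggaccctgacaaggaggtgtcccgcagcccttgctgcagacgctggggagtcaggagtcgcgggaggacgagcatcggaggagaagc
Plagl1 promoter, chr10:13090582-13090881, plus strand: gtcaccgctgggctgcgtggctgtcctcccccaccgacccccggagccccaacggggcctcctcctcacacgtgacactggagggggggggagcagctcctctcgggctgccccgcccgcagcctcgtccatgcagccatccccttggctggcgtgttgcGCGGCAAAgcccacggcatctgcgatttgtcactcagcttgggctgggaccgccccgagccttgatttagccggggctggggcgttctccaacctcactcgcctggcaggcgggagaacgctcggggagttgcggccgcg
Meg3 promoter, chr12:109540746-109541045, plus strand: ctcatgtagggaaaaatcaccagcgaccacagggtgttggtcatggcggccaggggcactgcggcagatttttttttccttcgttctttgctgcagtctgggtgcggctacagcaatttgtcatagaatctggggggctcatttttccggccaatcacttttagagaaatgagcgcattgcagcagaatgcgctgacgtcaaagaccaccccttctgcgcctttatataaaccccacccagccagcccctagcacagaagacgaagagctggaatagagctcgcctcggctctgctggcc
Nnat promoter, chr2:157559828-157560127, plus strand: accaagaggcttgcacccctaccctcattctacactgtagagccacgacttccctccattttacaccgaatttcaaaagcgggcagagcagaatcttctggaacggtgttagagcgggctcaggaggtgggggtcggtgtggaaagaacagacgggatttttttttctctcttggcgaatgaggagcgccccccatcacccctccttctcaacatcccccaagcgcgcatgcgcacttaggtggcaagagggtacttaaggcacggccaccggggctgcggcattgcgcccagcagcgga
Of the 9 measured members, 8 had a region in the RefSeq table, 15 regions of 300 bases in all, since some genes have several starts. Both strands were searched. One of TTTGGCGC, TTTCCCGC, TTTGCCGC or TTTCGCGC, the E2F motifs, was found in 1 of the 15, and in 744 of 32851 regions of all genes (2.26%). GGGGCCCC was found in 1 of the 15, at position -201 from the start of Peg3, and in 354 of all regions (1.08%). The number of CpG dinucleotides was 13 in the Peg3 region shown, 26 in Plagl1, 13 in Meg3 and 17 in Nnat, against a median of 7 over all regions. Over the 15 regions it ran from 1, in another Meg3 region, to 45, in a Grb10 region. A motif match is a description of letters and does not show binding.

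In S/S cells no member passed the test against their wild type, but Meg3, Nnat and Peg3 lay 1.35- to 1.46-fold higher. Meg3, a maternally expressed long noncoding RNA, read 10.51, 10.54 and 10.97 in the wild type and 11.24, 11.42 and 10.99 in S/S. Every S/S array was above every wild-type array, although the lowest S/S and the highest wild-type array nearly met. The difference was 0.54 (SE 0.16, 1.46-fold), with an adjusted p of 0.273 by limma over all genes.

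Peg3, a paternally expressed zinc finger protein, read 10.87, 11.04 and 11.03 in the wild type and 11.51, 11.56 and 11.18 in S/S. Again no array of the groups overlapped. The difference was 0.44 (SE 0.12, 1.35-fold, limma adjusted p = 0.250). Nnat, which encodes the small membrane protein neuronatin and is paternally expressed, read 7.87, 8.18 and 7.99 against 8.20, 8.41 and 8.79. Its groups met almost end to end, at wild-type array 2 and S/S array 1, and the difference was 0.45 (SE 0.14, 1.37-fold, limma adjusted p = 0.333). In bulk samples a change in the share of cells that express a gene and a change in RNA per cell cannot be told apart.

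The other members differed little. Plagl1 lay 0.11 above its wild type, Grb10, an adaptor that dampens insulin and IGF receptor signalling, 0.08 above, and Igf2, the growth factor, 0.03 above. Sgce, which encodes epsilon-sarcoglycan, lay 0.02 below, Mest, of the alpha/beta hydrolase family, 0.11 below, and Dlk1, a membrane protein with EGF repeats related to Notch ligands, 0.15 below. The smallest limma adjusted p among these 6 was 0.734. Grb10 did not overlap, at 12.23, 12.20 and 12.20 in the wild type and 12.24, 12.30 and 12.34 in S/S, and neither did Dlk1, at 11.56, 11.50 and 11.49 against 11.20, 11.41 and 11.47. In all, 0 of 9 members passed, where 0.120% of all genes did, and 3 of 9 had an unadjusted p under 0.05, where 10.1% of genes did. The groups did not overlap for 4 members above and 1 below, against 5.49% and 6.29% of all genes.

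By parent, the 7 paternally expressed members had a median difference of 0.03 in S/S, with 4 above 0 as were 42.4% of all genes, and the 2 maternally expressed members 0.54 and 0.08. The median of all genes was -0.04. Leaving out array S1 gave differences of 0.46 for Meg3, 0.38 for Peg3 and 0.38 for Nnat. Without S/S array 3, the highest for Nnat, its difference was 0.29. With array weights, an alternative that gave array S1 a weight of 0.0774 and the second S-set control 5.88, Meg3 passed (0.64, limma adjusted p = 0.0354). This was 1 of 22 alternatives, over which the adjusted p was up to 0.675.

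Markers of other cell types moved with the S/S comparison, and their part in the members' differences was not tested. Of 12 macrophage and blood markers 10 lay above every array of the wild type, where 5.49% of all genes did, with a median difference of 0.71 against -0.04, and 0 passed. The embryonic globin gene Hbb-bh1, which averaged 4.38 over all arrays, at the floor, lay below every wild-type array. The mean level of the list ranged from -0.30 to -0.16 in the wild type and from 0.32 to 0.45 in S/S. In the L set it ranged from -0.79 to 1.00 in the wild type and from -1.16 to 0.29 in L/L, with no separation. The mean of the 8 endothelial markers ranged from -0.22 to -0.17 in the S-set wild type and from -0.03 to 0.06 in S/S. Gene by gene, 3 lay above 0 and 5 below, where 42.4% of all genes lay above 0. Their median was -0.09 against -0.04. Emcn lay 1.62 above its wild type (limma adjusted p = 0.197) and Flt1 0.72 (adjusted p = 0.0603), while Pecam1 and Cdh5 lay at -0.18 and -0.17. The mean of the 8 neural markers was lower in S/S, at 0.04 to 0.39 in the wild type and -0.13 to -0.04 in S/S. The 0.39 was on array S1. Of these markers 4 were lower at an unadjusted p under 0.05 (4.93% of all genes). The 8 cartilage markers did so too, at 0.19 to 0.30 against -0.11 to 0.17, with 2 lower at that p, and 0 of either list passed.

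In L/L cells Nnat stood highest over its wild type and the other 8 members lay close to theirs. Nnat read 8.51, 8.47 and 8.35 in the wild type and 9.04, 9.20 and 9.26 in L/L, so that the lowest L/L array lay well above the highest wild-type array. The difference was 0.72 (SE 0.14, 1.64-fold, unadjusted p = 0.000222), and the limma adjusted p over all genes was 0.200. It passed when both arrays numbered 1 of the S set, which change only the estimate of the spread here, were left out (adjusted p = 0.0296), and with array weights (adjusted p = 0.00145). These were 2 of 22 alternatives, over which the limma adjusted p was up to 0.971.

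No member passed in L/L, where 0.0401% of all genes did, and Nnat alone had groups that did not overlap, where 9.71% of genes lay above without overlap and 5.10% below. Meg3 read 11.54, 11.42 and 11.35 in the wild type and 11.60, 11.45 and 11.16 in L/L, a difference of -0.03 (SE 0.16). Peg3 read 11.62, 11.52 and 11.36 against 11.46, 11.58 and 11.61, a difference of 0.05 (SE 0.12). The groups of both genes overlapped throughout. The 95% interval of the difference was -0.37 to 0.30 for Meg3 and -0.21 to 0.31 for Peg3. The remaining 6 members lay between -0.11 for Plagl1 and 0.18 for Dlk1. Of 11 fibroblast markers, 10 lay below 0 in L/L and 1 above, with a median of -0.14 against 0.02 for all genes. Of these markers 6 lay below every wild-type array, where 5.10% of all genes did, and 0 passed. Of 8 endothelial markers 3 lay above every wild-type array, where 9.71% of all genes did, and 0 passed. The part of these markers in the members' differences was not tested.

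**Figure D1:**
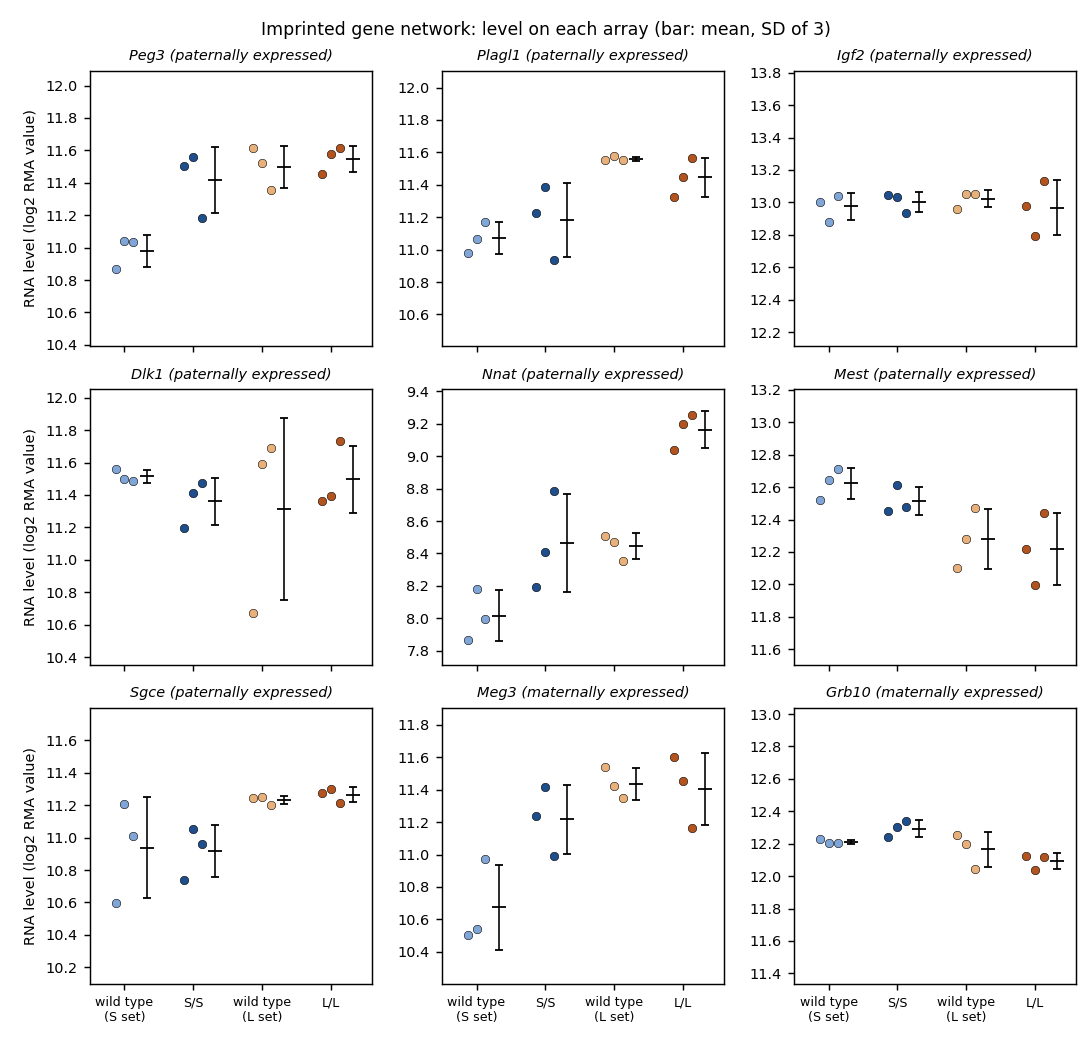
Log2 RNA level of each measured member on each of the 12 arrays, by group, with the mean and the SD of 3 arrays beside the points. Each panel has its own axis. Peg3 and Meg3 are low in the S-set wild type and similar in the other 3 groups, and Nnat is higher in each mutant than in its own wild type.

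The S/S and L/L effects were set against each other in the same fit. Meg3 had the largest difference of effects, 0.58 (SE 0.22, limma adjusted p = 0.715), followed by Peg3 at 0.39 (SE 0.17, adjusted p = 0.764). For Nnat it was -0.27 (SE 0.20, adjusted p = 0.797), and the 95% interval of -0.70 to 0.17 includes 0. None of the 9 members passed, where 0.0150% of all genes did, so no member was shown to respond differently to the 2 genotypes.

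Nnat was above every array of its own wild type in both mutants. That held for 1 of 9 members and for 154 of all genes (0.772%). The mean of both effects, a comparison chosen after seeing the data, was 0.58 for Nnat (SE 0.10), with a limma adjusted p of 0.0503 against the threshold of 0.05, where 0.0853% of all genes passed. It fell under the threshold in 6 of 21 alternatives, among them the fit without array S1 (0.0451), the fit lacking the first S/S array (0.0456) and quantile normalization (0.0343). L/L cells also had more Nnat than S/S cells, by 0.70 (SE 0.14, 1.62-fold, limma adjusted p = 0.00914), another comparison chosen after seeing the data, which 9.44% of genes passed. These groups belong to different sets, and Nnat was also 0.43 higher in the L-set than in the S-set wild type (limma adjusted p = 0.0804). In the comparison of L/L with S/S, set and genotype cannot be told apart.

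Between the 2 wild types, which share their Rb1 genotype, Meg3, Peg3 and Plagl1 passed, and each was higher in the L set. The S-set wild type also serves as control for S/S and the L-set wild type for L/L, so this comparison shares arrays with both mutant comparisons. Meg3, with the levels given above, differed by 0.76 (SE 0.16, 1.70-fold, limma adjusted p = 0.0108). Peg3 differed by 0.52 (SE 0.12, 1.43-fold, adjusted p = 0.0198). No array of one wild type reached the range of the other for either gene.

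Plagl1, a paternally expressed zinc finger factor, read 10.98, 11.06 and 11.17 in the S-set wild type and 11.55, 11.57 and 11.55 in the L-set wild type. The L-set arrays were nearly equal and all lay above the S set. The difference was 0.49 (SE 0.12, 1.40-fold, limma adjusted p = 0.0268). In the mutants Plagl1 read 11.22, 11.39 and 10.93 in S/S and 11.33, 11.45 and 11.57 in L/L.

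Among the other members, Nnat was 0.43 higher in the L set without overlap (limma adjusted p = 0.0804) and Sgce 0.29 higher with overlap (adjusted p = 0.223). Mest lay 0.34 lower in the L set: the difference was -0.34 (adjusted p = 0.122), with 12.52, 12.64 and 12.71 in the S-set wild type and 12.10, 12.28 and 12.47 in the L-set wild type. Dlk1 was at -0.20, where L-set array 1 alone read 10.67 and the other two 11.59 and 11.69. Without that array, which is 1 of the 2 with male levels, Dlk1 turned to 0.12. Igf2 was at 0.05 and Grb10 at -0.05.

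In all, 3 of 9 members were called higher and 0 lower, where 3.54% of all genes were called higher and 5.17% lower. The groups did not overlap for 4 members above and 1 below, against 11.5% and 16.1% of genes. By parent, 2 of 7 paternally expressed members and 1 of 2 maternally expressed members passed. The calls depended on single arrays and on the groups fitted, and 0 of 9 passed with the wild types fitted alone (adjusted p = 0.0625 for Meg3). Plagl1 missed the threshold without S-set wild-type array 2 (limma adjusted p = 0.0515) and without L-set array 3 (adjusted p = 0.0650). With array S1 left out the 3 members still passed, at 0.68 for Meg3, 0.46 for Peg3 and 0.44 for Plagl1. Without L-set wild-type array 1, 0 of 9 members passed and Meg3 had a limma adjusted p of 0.0585, and without array 2, 1 passed. With both arrays of male levels left out 0 passed, although the differences stayed at 0.71 for Meg3, 0.46 for Peg3 and 0.49 for Plagl1. The labels match each mutant to a wild type of its own and do not say how the sets differ, so embryos, culture and array handling cannot be told apart as sources of a difference between them.

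Proliferation genes moved with the comparison of the wild types, and their part in the members' differences was not tested. Of 14 proliferation genes, 7 were called lower in the L-set than in the S-set wild type, against 5.17% of all genes, with a median of -0.48 against -0.07 for all genes. They included the mitotic kinase Plk1 at -0.96 and the replication helicase gene Mcm5 at -0.88. The mean level of the list relative to all arrays was -0.09, 0.30 and 0.32 in the S-set wild type and -0.63, -0.31 and 0.03 in the L-set wild type. In L/L 1 of the 14 passed, Mcm6, at 1.17 (limma adjusted p = 0.0308 and in 10 of 22 alternatives), and 12 lay above 0, as did 55.9% of all genes. At an unadjusted p under 0.05, 7 of the 14 were higher in L/L and 0 lower, where 2.68% of all genes were higher. In S/S 0 passed, and 11 lay below 0 and 3 above, where 42.4% of all genes lay above 0. Some markers of other cell types differed between the wild types too. All 8 cartilage markers lay below 0 in the L set and 3 were called lower, Sox9 at -0.74, Acan at -0.70 and Matn1 at -0.37, and the list level was 0.19 to 0.30 in the S-set wild type and -0.11 to -0.06 in the L-set wild type. The neural marker Gfap was called lower, at -0.67 (adjusted p = 0.0486), and the endothelial marker Tek higher, at 0.58 (adjusted p = 0.0134). Each was the only 1 of the 8 genes on its list to be called. Of the neural markers 3 lay above 0 and 5 below, and of the endothelial markers 4 and 4, where 38.0% of all genes lay above 0. The 9 skeletal muscle markers separated as a list, at -0.01 to 0.42 against -0.11 to -0.05, with 0 called. The 0.42 was on array S1, and the other S-set wild-type arrays were at -0.01 and 0.01, close to the L set. Their part was not tested either.

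**Figure D2:**
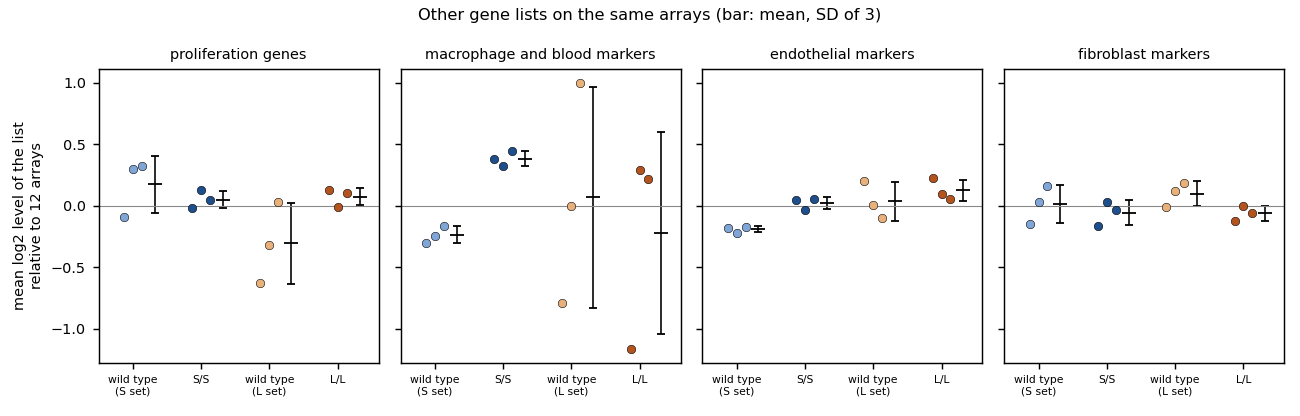
Mean log2 level of 4 gene lists on each array, each gene taken relative to its mean over the 12 arrays, with the mean and SD of 3 arrays. Proliferation genes are lower on 2 of 3 L-set wild-type arrays, and macrophage and blood markers are higher on all 3 S/S arrays than on their wild type and spread widely in the L set.

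**Figure D3:**
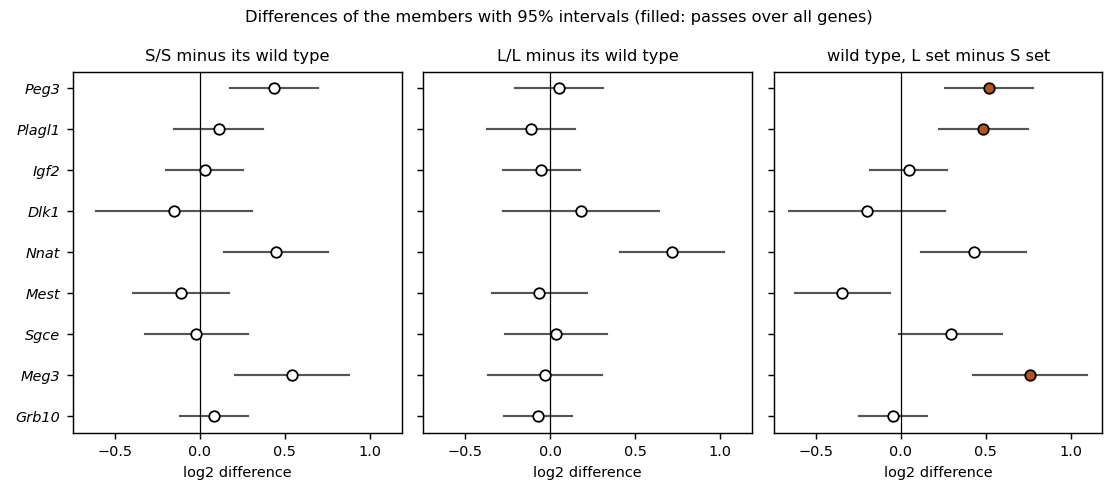
Log2 difference of each member with its 95% interval in the 3 comparisons named above the panels. Filled points pass at an adjusted p under 0.05 over all genes. Peg3, Plagl1 and Meg3 are filled in the comparison of the wild types, and no point is filled in either mutant.

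The genes between Dlk1 and Dio3 on chromosome 12, where Meg3 lies, were described next. In this imprinted domain the paternal copy expresses the protein-coding genes Dlk1, Rtl1 and Dio3, and the maternal copy expresses Meg3, Rian and a long array of microRNA genes that lie in the same noncoding transcripts. Of the measured genes there, 40 are microRNA genes and 7 are others. The domain was chosen after the values of these genes were seen. They were read on the same arrays as Meg3, and the microRNA genes share transcripts. The counts below are therefore descriptions and not separate support for the Meg3 difference. The array probe sets carry the symbols of the microRNA genes, but whether they read mature, hairpin or host transcripts was not tested. The mature sequences are shown of the 5 microRNA genes with the largest differences among those that passed between the wild types and had a mean above the floor in the S-set wild type, with the seed, bases 2 to 8, in capitals. They come from RefSeq on GRCm38.p6.
miR-377-5p, chr12:109740515-109740536, plus strand: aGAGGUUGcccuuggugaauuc
miR-377-3p, chr12:109740553-109740574, plus strand: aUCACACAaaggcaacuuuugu
miR-323-5p, chr12:109712523-109712544, plus strand: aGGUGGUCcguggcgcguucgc
miR-323-3p, chr12:109712558-109712578, plus strand: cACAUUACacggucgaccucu
miR-382-5p, chr12:109733781-109733802, plus strand: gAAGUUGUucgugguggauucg
miR-382-3p, chr12:109733819-109733840, plus strand: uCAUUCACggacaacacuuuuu
miR-341-5p, chr12:109611521-109611541, plus strand: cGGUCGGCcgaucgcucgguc
miR-341-3p, chr12:109611556-109611576, plus strand: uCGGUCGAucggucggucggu
miR-329-5p, chr12:109713503-109713524, plus strand: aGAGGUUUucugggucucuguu
miR-329-3p, chr12:109713541-109713562, plus strand: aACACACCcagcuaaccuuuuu
The 40 genes hold 76 mature sequences with 74 different seeds. One seed, AUGUAAC, is shared by miR-411-3p and miR-379-3p, and another, UGGAUAU, by miR-376b-5p and miR-376c-5p, so most of these microRNAs have seeds of their own.

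Between the wild types, 10 of the 40 microRNA genes passed as higher in the L set and 0 as lower. In all, 34 of the 40 lay above 0, as did 38.0% of all genes. The median difference was 0.23, against -0.07 for all genes. Of 251 microRNA genes elsewhere in the genome, 5 passed as higher (1.99%) and 1 as lower. Mir377 read 5.43, 6.52 and 7.07 in the S-set wild type and 7.78, 7.73 and 8.05 in the L-set wild type, a difference of 1.51 (SE 0.34, 2.85-fold, limma adjusted p = 0.0170). Its value on array S1 lies in the range of the floor, and leaving out that array gave 1.06. Mir380 read 4.01, 4.49 and 4.71 against 6.06, 5.49 and 5.79 (adjusted p = 0.00321), Mir411 4.66, 4.64 and 4.52 against 5.84, 5.25 and 5.42 (adjusted p = 0.00737) and Mir300 5.13, 4.89 and 5.11 against 5.94, 5.69 and 5.91 (adjusted p = 0.00290). The S-set values of these 3 genes lie in the range of the floor, so no size is given for their differences.

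Mir323 read 5.89, 6.22 and 6.21 against 7.35, 7.01 and 7.08, a difference of 1.04 (SE 0.13, 2.05-fold, limma adjusted p = 0.00148). Its arrays were close within each group and far apart between them. Mir382 differed by 0.77, Mir341 by 0.74, Mir329 by 0.67, Mir679 by 0.55 and Mir134 by 0.49, and each passed. Of the 40 genes, 25 had a mean over all arrays above the highest floor value. Without L-set wild-type array 1 the calls of Mir377, Mir382, Mir341, Mir329, Mir679 and Mir134 were lost. Those of Mir377 and Mir382 were also lost without L-set array 3, that of Mir341 without L-set array 2, and Mir134 held in 12 of 22 alternatives. Mir323 passed in 22 of 22. The count of 10 fell to 4 without L-set wild-type array 1, and also to 4 with both arrays of male levels left out.

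Rian, a maternally expressed long noncoding RNA, read 5.67, 6.74 and 6.46 in the S-set wild type and 7.85, 7.50 and 6.98 in the L-set wild type. The groups did not overlap, and the difference was 1.15 (SE 0.31, 2.22-fold, limma adjusted p = 0.0393). The call held in 12 of 22 alternatives, with an adjusted p of up to 0.207, and was lost without S-set array 1 or 3, L-set array 1 or 2, S/S array 3, or L/L array 1 or 2. DQ267102, annotated as a small nucleolar RNA gene, read 8.72, 10.88 and 10.44 against 11.65, 11.66 and 11.91, a difference of 1.72 (SE 0.39, adjusted p = 0.0176), with array S1 far below the others. Leaving out array S1 gave 1.08, and the call was lost without any 1 of the 3 L-set wild-type arrays (it held in 17 of 22 alternatives). The paternally expressed Dlk1, Rtl1 and Dio3 lay at -0.20, 0.11 and 0.11, and none passed. Of the maternally expressed noncoding genes Meg3, Rian, DQ267102 and the 10 microRNA genes passed and the rest did not, among them the small nucleolar RNA gene DQ267101 at 0.35 (adjusted p = 0.270). A difference between genes of the 2 parental copies was not tested.

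The same genes were compared between L/L and S/S, which shares no array with the wild types. Of the 40 microRNA genes 5 passed as higher in L/L and 0 as lower, where 3.69% of all genes passed as higher and 5.75% as lower. The difference was above 0 for 31 of them and for 53.8% of all genes, and their median was 0.16. Mir323 differed by 1.30, Mir377 by 1.26 and Mir412 by 0.41 in that direction. Mir380 and Mir300 also passed, and their S/S means of 4.58 and 5.34 lie in the range of the floor. Meg3 was 0.19 higher in L/L (limma adjusted p = 0.564). Elsewhere in the genome 6 of 251 microRNA genes passed as higher and 4 as lower. Against their own wild types, 0 of the 40 passed in S/S, where 7 were higher at an unadjusted p under 0.05 (5.21% of all genes). In L/L 0 passed, and 0 were higher at that p (2.68% of all genes).

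**Figure D4:**
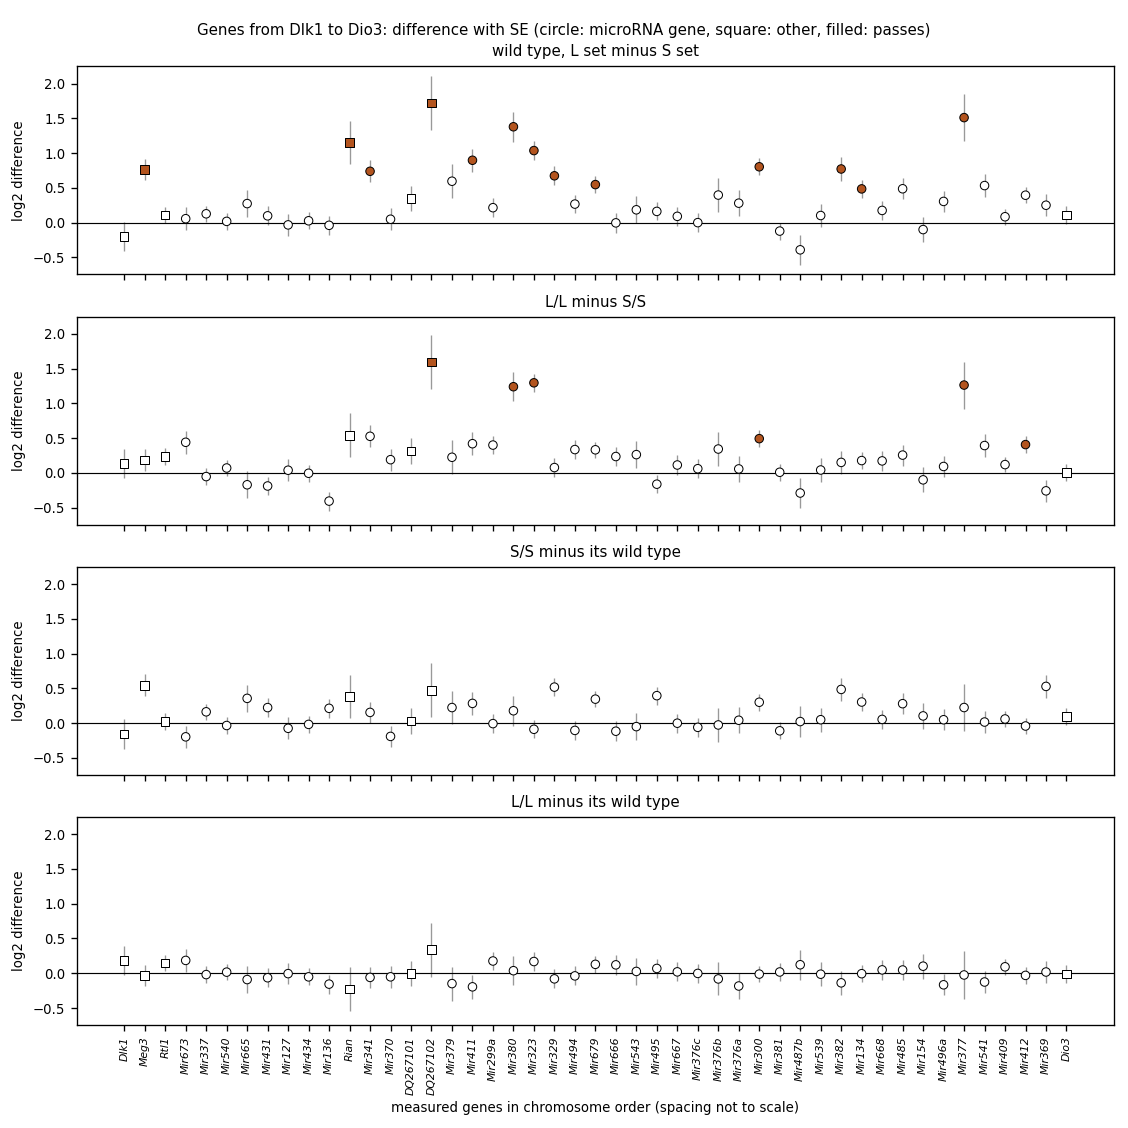
Log2 difference with its SE for each measured gene from Dlk1 to Dio3, in chromosome order with spacing not to scale, in 4 comparisons. Circles are microRNA genes, squares are other genes and filled points pass over all genes. Filled points are all above 0, in the comparisons of the L set with the S set, and none is filled in a mutant against its own wild type. Mir380, Mir411 and Mir300 are set against S-set wild-type values in the range of the floor.

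Other imprinted genes were read from lists drawn up with earlier results of these data known. Of 17 other paternally expressed genes, 0 passed in either mutant. Over all genes 0.120% passed in S/S and 0.0401% in L/L, and these shares also stand beside the counts of the lists that follow. In S/S cells Peg10 was 0.48 above its wild type (limma adjusted p = 0.268) and in L/L cells it lay at -0.41 (adjusted p = 0.953), without overlap in either. Airn, a noncoding RNA, was at 0.53 and Mcts2 at 0.44 in S/S. Between the wild types 1 of the 17, Impact, passed as higher in the L set, by 0.64 (adjusted p = 0.0379), where 3.54% of all genes did. It fell to 0.42 without array S1, and the call was lost without that array or any 1 of the L-set or L/L arrays.

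Of 21 other maternally expressed genes, 0 passed in either mutant and 4 did between the wild types, 3 higher (3.54% of all genes) and 1 lower (5.17%). Cdkn1c, which encodes the cyclin-dependent kinase inhibitor p57, was higher in the L set by 0.52 (limma adjusted p = 0.0151), as were Rian and Dcn, which encodes the matrix proteoglycan decorin, by 0.35 (adjusted p = 0.0452). Dcn is also on the list of fibroblast markers, and whether the listed genes are imprinted in these cells was not tested. The call of Dcn held in 10 of 22 alternatives, with an adjusted p of up to 0.174, and was lost without S-set array 2 or 3, S/S array 2, or any 1 L-set or L/L array. Copg2, a coat protein of Golgi vesicles, was lower, with a difference of -0.51 (adjusted p = 0.0205). The call of Cdkn1c was lost without L-set array 2 or 3, and that of Copg2 without S-set array 3 or any 1 L-set wild-type array. The S/S effect on Zim1 was 0.50 and on Gatm, which makes the creatine precursor, 0.38, and neither passed.

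Genes around Igf2 and Grb10 in the IGF pathway were described likewise. Of 21 ligands, receptors, binding proteins and adaptors 0 passed in either mutant. The 4 with the smallest p in S/S were Pappa, a protease that frees IGF from its binding proteins, at 0.50, Igf1 at 0.28, and the binding proteins Igfbp3 and Igfbp5 at -0.30 and -0.33. In L/L Igfbp5 lay at -0.45 and the secreted protease Htra1 at -0.53. Between the wild types Igf1 was higher in the L set by 0.47 (limma adjusted p = 0.0192), and Irs2, an adaptor of insulin and IGF receptors, was lower, at -0.65 (adjusted p = 0.00409), beside 3.54% of all genes called higher and 5.17% lower. The call of Igf1 was lost without any 1 L-set wild-type array.

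Of 15 factors that keep imprints, 0 passed in either mutant. Dnmt1, the maintenance DNA methyltransferase, was 0.68 above its wild type in L/L (limma adjusted p = 0.155) and at -0.21 in S/S (adjusted p = 0.562). Eed, a Polycomb subunit, was 0.93 higher in the L-set than in the S-set wild type (adjusted p = 0.0247), but its other probe set, with a lower mean level, had a difference of -0.37, so the 2 disagree. The first fell to 0.56 without array S1, and its call was lost without any 1 L-set wild-type array.

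Within groups, the members did not move as 1 block. The correlation of deviations from the group means, over 12 arrays that share the groups' 3 cultures each, was highest for Peg3 with Plagl1 among the 36 pairs of members, at 0.83, or 0.82 with array S1 left out. Igf2 with Mest gave 0.74 and Dlk1 with Mest 0.68. Meg3 and its neighbour Dlk1, which are expressed from opposite parental copies, gave -0.44, as did Dlk1 with Grb10. Peg3 with Dlk1, both paternally expressed, gave -0.41, as did Nnat with Meg3, which lie on different chromosomes. Dlk1 varied most in the L-set wild type (SD 0.56, against 0.04 to 0.21 in the other groups), where array 1 alone read 10.67. The correlations of Dlk1 were not computed without that array, so they may rest on it. The genes outside the network most like the mean of the 7 paternally expressed members were Slc25a15 (0.96), Taf9 (0.95) and Gtf3c6 (0.94), and those most like the mean of the 2 maternally expressed members were Cdkn2b (0.95), Fhl5 (0.95) and Ubn2 (0.94). Each was picked as the highest of all genes, so these are descriptions of 12 arrays.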

How the data were processed

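RNA of 12 serum-starved MEF cultures was read on 12 Affymetrix arrays (Mouse Gene 1.0 ST). The deposited values are log2 RMA values made by the authors with Partek, per the submitters' processing notes and the design text; its version, the genome build and the arrays normalised together are not given in the sources used here. Precision is limited by the number of arrays. Of 35556 probe sets, 21789 had 1 gene symbol, 1621 several and 12146 none in the platform annotation; the first gave 19938 genes, each by its probe set of highest mean. Groups were taken from the labels. Limma 3.58.1 (R 4.3.3) fitted 4 group means to all arrays and genes without a block, with two-sided moderated tests and Benjamini-Hochberg adjustment over all genes tested (threshold 0.05); the fit was tested on simulated data. The labels do not say that a replicate number marks a shared origin, so the main fit took no pairs and the replicate block was an alternative. Deviations of samples with the same number had an r of 0.39, 0.47 and -0.12 in the S set and 0.60, 0.06 and 0.36 in the L set. With different numbers r was -0.60 to 0.59 in the S set and -0.52 to 0.21 in the L set. In the L set both arrays numbered 1 are those with male levels. A shared origin was not tested. The members and lists were chosen with earlier results of these data known. Genes named from the lists were those that passed in a comparison and the 4 of smallest p in each mutant; a few others, among them the marker genes, were named after their values were seen. Alternatives were quantile normalization, a mean of at least 6, each pair of groups alone, a replicate block, array weights, another variance model, other probe sets, and arrays left out.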

Additional observations from a re-analysis of the deposited data

How the results depend on the processing

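The replicate block, array weights and arrays left out moved the counts of genes past the threshold. In S/S the count over all genes was 24, and it was 44 with each pair of groups fitted alone, 37 with the replicate block, 415 with array weights, 37 with the arrays of male levels left out and 3 with both arrays numbered 1 of the S set left out, and 2 to 38 with 1 array left out. In L/L the count was 8, and 5, 5, 336, 2 and 42 under the same settings, and 2 to 26 with 1 array left out. The difference of effects had 3 genes, 7 after quantile normalization, 293 with array weights, 8 without both arrays numbered 1 of the S set and 3 to 21 with 1 array left out. The wild types differed in 1736 genes, in 228 fitted alone, 6520 with array weights, 304 without the arrays of male levels, 2870 without both arrays numbered 1 of the S set and 525 to 2078 with 1 array left out. L/L and S/S differed in 1882 genes, in 2892 fitted alone, 3739 with array weights, 551 without the arrays of male levels, 3751 without both arrays numbered 1 of the S set and 733 to 3790 with 1 array left out. The mean effect had 17 genes, 29 after quantile normalization, 29 with a mean of at least 6, 29 with the replicate block, 384 with array weights, 11 without the arrays of male levels, 37 without both arrays numbered 1 of the S set and 5 to 46 with 1 array left out.

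Among the members, 1 passed in S/S with array weights and 0 with any 1 array left out. In L/L 1 passed with array weights and 1 without both arrays numbered 1 of the S set, and 0 with any 1 array left out. For the difference of effects 0 passed under every setting run. Between the wild types 3 passed, but 0 when fitted alone, 5 with array weights, 0 without the arrays of male levels and 0 to 4 with 1 array left out. For the mean effect 1 passed after quantile normalization, with a mean of at least 6, with array weights and without both arrays numbered 1 of the S set, and 0 to 1 with 1 array left out. Between L/L and S/S 1 passed, 2 after quantile normalization, with array weights and without both arrays numbered 1 of the S set, and 1 to 2 with 1 array left out. Of the microRNA genes between Dlk1 and Dio3, 10 passed between the wild types, 4 when fitted alone, 30 with array weights, 4 without the arrays of male levels and 4 to 12 with 1 array left out, and between L/L and S/S 5 passed, 10 with array weights, 2 without the arrays of male levels, 8 without both arrays numbered 1 of the S set and 2 to 11 with 1 array left out.

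Some differences changed sign, and the cause was not tested. In S/S these were Igf2 at -0.0182 after quantile normalization and Dppa3, a factor that protects imprints, from -0.31 to 0.0473 without both arrays numbered 1 of the S set. In L/L they were Meg3 at 0.0077 with array weights and Dlk1 from 0.18 to -0.0744 without the arrays of male levels. The difference of effects for Mest was 0.0452 without those arrays, and Dlk1 turned from -0.20 to 0.12 between the wild types. Between L/L and S/S Igf2 turned to 0.0024 after quantile normalization. With 1 array left out in S/S, the range of the difference was Igf2 from -0.0171 to 0.0646, Sgce from -0.19 to 0.11. In L/L it was Dlk1 from -0.14 to 0.37, Meg3 from -0.13 to 0.0893, Peg3 from -0.0214 to 0.11, Mest from -0.18 to 0.0455, Igf2 from -0.14 to 0.0328. For the difference of effects it was Sgce from -0.22 to 0.0803, Mest from -0.16 to 0.0644, Igf2 from -0.0032 to 0.17. Between the wild types it was Igf2 from -2e-04 to 0.0794, Dlk1 from -0.39 to 0.12, Grb10 from -0.0897 to 0.0149. Between L/L and S/S it was Igf2 from -0.12 to 0.0498.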
